A study of Mus musculus with 11 samples.

Results

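The nuclear-encoded subunits of the mitochondrial respiratory chain and the ATP synthase were examined in whole brains of 11 untreated C57BL/6J mice, 1 array per mouse. Members were all probe sets annotated to 1 gene whose symbol begins with Nduf, Uqcr, Atp5 or Cox4 to Cox8, or is Sdha, Sdhb, Sdhc, Sdhd, Cyc1 or Cycs. This gave 101 of 12488 probe sets, for 73 genes. A further 10 probe sets that carried such a symbol beside other genes were left out. Of the 101 members, 76 were bright enough to be tested among 7453 probe sets in all: 29 for complex I, 4 for complex II, 10 for complex III with cytochrome c, 13 for complex IV and 18 for complex V. The other 2, for Ndufaf1 and Ndufaf4, share the Nduf prefix but encode assembly factors of complex I. The mice were 5 nulls lacking the nicotinic receptor subunit β4, part of a cation channel opened by acetylcholine, and 6 wild-type littermates. The null brains came from 2 males (null 1 and 2, both 9 weeks old) and 3 females (null 3 at 7 weeks, null 4 and 5 at 8 weeks). The wild-type brains came from 4 males (wild-type 1 at 9 weeks, wild-type 2 at 8 weeks, wild-type 4 and 6 at 6 weeks) and 2 females (wild-type 3 at 7 weeks, wild-type 5 at 6 weeks). The animal numbers of wild-type 4, 5 and 6 begin with LT and those of the other 8 mice with B4, and the labels do not say what the letters mean. The construction of the null allele is not given in the sources used here. No probe set is named for Chrnb4, the gene of the β4 subunit, so the genotype labels could not be checked on it.

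Oxidative phosphorylation makes most of the ATP of a neuron. Complex I takes electrons from NADH and complex II takes them from succinate. Both pass them through ubiquinone to complex III, from where cytochrome c carries them to complex IV, which reduces oxygen. Complexes I, III and IV pump protons across the inner mitochondrial membrane, and the ATP synthase, complex V, makes ATP from their return. Every complex except complex II also holds subunits encoded by mitochondrial DNA, of which no probe set was found by name, so only the nuclear part of the chain is described. Signals are MAS5 intensities on a linear scale, and differences are given on the log2 scale as null minus wild-type with their standard error (SE). Adjusted p-values come from limma over all 7453 probe sets, with 0.05 as the threshold. In whole brain RNA, fewer cells of a type and less RNA per cell cannot be told apart.

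Both male null brains had lower signals than each of the other 9 for 40 of the 76 tested members, among them 16 of 29 in complex I, 7 of 10 in complex III with cytochrome c, 8 of 13 in complex IV and 9 of 18 in complex V, where 16.5% of all tested probe sets were lower in this way. Within males, 42 of 76 members were lower and 7 higher in null than in wild-type brains, where 14.8% of all 7453 probe sets were called lower and 17.8% higher (32.6% in all). The median member difference in males was -0.47, against 0.05 over all probe sets. Within females, 0 of 76 members and 0 of 7453 probe sets (0%) were called, and the median member difference was 0.08. Without adjustment 3 members had a female p under 0.05 (Cox7b and Ndufv3 higher, Sdhd lower), against 4.13% of all probe sets (2.55% higher and 1.58% lower). The genotype difference itself differed between the sexes at 35 of 76 members, against 15.9% of all probe sets. Over both sexes together 0 of 76 members passed the genotype test, against 0.0268% of all probe sets (0.0134% in each direction).

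Leaving out null 1 or null 2, so that the remaining male null brain was assumed to vary like the other groups, left 32 and 29 members called in males, against 18.0% and 16.3% of all probe sets. Among the 8 B4 animals alone, 41 members were lower and 6 higher in males, with a median of -0.52, where 1019 of 7453 probe sets were lower and 1238 higher (30.3% in all), while the LT animals are all wild-type and give no such value. With each array centred on its median, the median male difference of all probe sets moved to -0.23 and that of the members to -0.76, so that the members lay 0.53 below all probe sets, as they did without centring. That scaling gave 47 members lower and 4 higher, and turned 1330 higher and 1103 lower probe sets overall into 763 and 2008. Quantile normalization gave 39 members lower and 9 higher, and 1119 higher and 1425 lower overall. Of the 7 members called higher, Ndufa9, Ndufv1, Sdha and Uqcrc1 passed with both scalings, while Ndufs3, Cox7a2l and Ndufaf1 did not with median centring (0.22, 0.20 and 0.32). With quantile normalization 0 probe sets of the complex I assembly factors were called higher, so Ndufaf1 was called higher with neither scaling.

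The male null arrays also stood apart in measures that do not belong to the respiratory chain. The ratio of 3′ to 5′ Gapdh control signal, which depends on the integrity and labelling of the RNA, was 0.859 and 0.798 in them. For the female nulls it ranged from 2.19 to 3.58 and for the wild-types from 3.57 to 5.92. A higher ratio means relatively more signal from the 3′ end. The arrays weighted to that end were thus the other 9, wild-types included, and not the male null arrays. The male null arrays had median signals of 58.3 and 56.3, against 43.6 to 49.75 on the other 9 arrays, although the trimmed mean of each array was 150.1. With the Gapdh ratio as a covariate, 0 of 76 members and 0 of 7453 probe sets were called in the male, female or genotype difference. The same held for the difference between the sexes. The median member difference in males was then -0.41, against 0.09 over all probe sets. Being male and null, carrying these array properties and being 1 of these 2 mice cannot be told apart. Among females the null ratios (2.75, 2.19 and 3.58) also lay below the wild-type ones (3.91 and 3.81). In females, genotype and the Gapdh ratio therefore cannot be told apart either.

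Some member promoters hold binding motifs of factors known to drive respiratory chain genes. In the 250 bases before the gene start, 59 of the 73 member genes had a RefSeq window (GRCm38.p6). The NRF1 motif GCGCATGC, or its reverse complement GCATGCGC, lay in 9 of 59 (15.3%), against 4.53% of 6573 genes on the array and 2.56% of all 27025 genes with a window. The ETS core CCGGAAG, or CTTCCGG, bound by the GABP factor, lay in 12 of 59 (20.3%), against 13.6% and 7.83%. The YY1 motif AAGATGGCG, or CGCCATCTT, was found in 1 window, that of Atp5j (1.69%, against 1.2% and 0.71%). The Sp1 motif GGGCGGGG, or CCCCGCCC, lay in 11 of 59 (18.6%), against 32% and 18%. The NRF1 windows belong to Atp5g2, Atp5k, Atp5l, Cox6a1, Cycs, Ndufa6, Ndufa8, Ndufaf4 and Sdhb, of which 4 (Atp5k, Atp5l, Cox6a1 and Ndufa8) were called lower in male null brains and 0 higher. That is 44.4% of the 9 genes, against 53.8% of the 52 tested member genes with a window. At least 1 of the 4 motifs lay in the windows of 12 of the 28 genes called lower, 2 of the 7 called higher (Ndufs3 and Ndufaf1) and 11 of the 17 not called. That is 25 of the 52 tested genes with a window, and of the 7 not tested 0 had a match. A match is a run of letters and not a measured binding site. The 4 windows below were picked after the matches were seen, as examples of both kinds and not as typical of either direction. Cox6a1 and Atp5l, lower in male null brains, each have an NRF1 and an ETS match, and Ndufv1 and Uqcrc1, higher there, have none of the 4 motifs, and nor do many genes called lower, such as Ndufa5 and Ndufc1. Each is written 5′ to 3′ on the strand of the gene, and capitals mark the NRF1 and ETS matches, with both overlapping NRF1 matches of Cox6a1 in 1 run.
Cox6a1, chr5:115348959-115349208, minus strand: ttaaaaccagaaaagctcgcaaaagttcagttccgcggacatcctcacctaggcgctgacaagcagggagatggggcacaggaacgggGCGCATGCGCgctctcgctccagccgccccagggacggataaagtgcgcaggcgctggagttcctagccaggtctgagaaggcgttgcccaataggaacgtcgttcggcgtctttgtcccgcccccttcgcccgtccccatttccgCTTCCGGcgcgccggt
Atp5l, chr9:44920743-44920992, minus strand: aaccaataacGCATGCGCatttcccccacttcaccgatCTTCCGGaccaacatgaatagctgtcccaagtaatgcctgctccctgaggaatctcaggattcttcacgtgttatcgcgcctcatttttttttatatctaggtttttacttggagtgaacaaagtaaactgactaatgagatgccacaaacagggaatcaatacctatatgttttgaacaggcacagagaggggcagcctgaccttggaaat
Ndufv1, chr19:4012756-4013005, minus strand: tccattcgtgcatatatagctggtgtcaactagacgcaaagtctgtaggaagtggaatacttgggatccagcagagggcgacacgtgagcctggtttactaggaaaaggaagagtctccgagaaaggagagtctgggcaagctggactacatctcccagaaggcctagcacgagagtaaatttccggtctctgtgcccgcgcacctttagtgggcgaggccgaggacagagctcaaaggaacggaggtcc
Uqcrc1, chr9:108936398-108936647, plus strand: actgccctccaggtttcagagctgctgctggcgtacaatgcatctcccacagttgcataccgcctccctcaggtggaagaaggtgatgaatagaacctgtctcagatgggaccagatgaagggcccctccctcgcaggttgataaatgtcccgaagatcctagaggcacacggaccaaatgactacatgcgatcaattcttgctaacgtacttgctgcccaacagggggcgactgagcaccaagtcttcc

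The 29 tested probe sets of complex I had a median male difference of -0.53, with 17 called lower and 3 higher. In females the median was 0.10 and 0 were called. The complex I mean of each array, as a deviation from the 11-array mean over its 29 probe sets, was -0.31 and -0.34 in the male null brains. It was 0.01 to 0.15 in male wild-type, 0.08 and -0.12 in female wild-type, and 0.09 to 0.13 in female null brains. The male null brains thus lay below all 9 others.

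**Figure D1:**
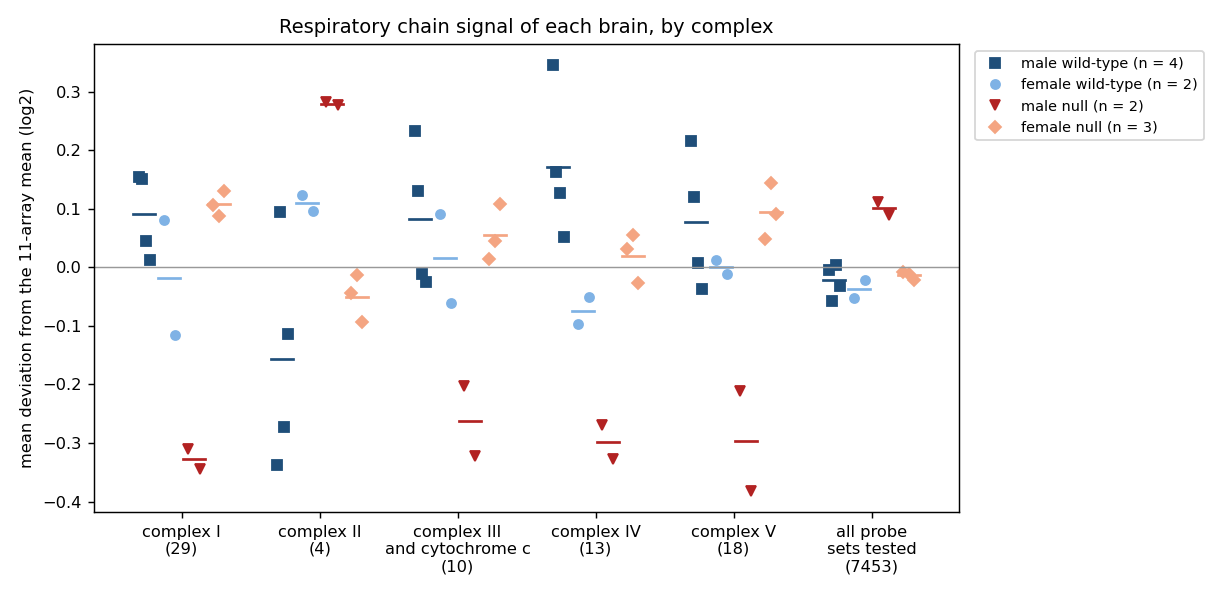
Mean log2 deviation of each brain from the 11-array mean, on the y axis, for the tested probe sets of each complex (number in brackets) and for all 7453, with 1 point per array and a bar at the mean of each genotype and sex. Both male null brains lie below the other 9 for complexes I, III, IV and V (complex I at -0.31 and -0.34), and above them for complex II, at 0.28 each, and for all probe sets, at 0.11 and 0.09.

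Ndufa5, an accessory subunit of the arm of complex I that reaches into the matrix, showed the lowest p of the complex in the male difference. Its signals were 3396, 2720, 2595 and 2698 in male wild-type, 2380 and 2027 in female wild-type, 1109 and 1107 in male null, and 2308, 2486 and 2198 in female null brains. The male null values were close to each other and lay below the lowest of the other 9. The male difference was -1.36 (SE 0.13, adjusted p = 2.13e-05), or 2.56-fold lower. The female difference was 0.08, and the difference between the sexes was 1.44 (adjusted p = 0.00089).

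Ndufab1, the mitochondrial acyl carrier protein that is also a complex I subunit, had the most negative genotype difference of complex I over both sexes, -0.68 (SE 0.15, adjusted p = 0.0773). Its signals were 1541, 1681, 1637 and 1683 in male wild-type, 1424 and 1890 in female wild-type, 767.7 and 811.2 in male null, and 1456, 1354 and 1255 in female null brains. Unlike for Ndufa5, 2 of 3 female null values also lay below every wild-type value. The female difference was -0.28 (unadjusted p = 0.0634) and the male difference -1.05 (adjusted p = 0.000105). Ndufc1, a small membrane subunit, gave 603.5 and 585.6 in the 2 male nulls and 974 to 1418 in the other 9. Its male difference was -1.11 and its female difference 0.04.

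Many, but not all, accessory subunits of the A and B series were lower in the male null brains. Ndufa2, Ndufa3, Ndufa8, Ndufb2, Ndufb3, Ndufb5, Ndufb6, Ndufb7 and Ndufb11 were each called lower in males and each called for the difference between the sexes, as was Ndufv3, a small subunit of the NADH-binding module. Ndufb5 had 2888 and 2609 in the 2 male nulls and 3987 to 6239 in the others, a male difference of -0.96. Both probe sets of Ndufa3 were lower, by male differences of -1.26 and -1.05, and both of Ndufb2, by -0.80 and -0.77. Ndufa7 and Ndufs1 were lower in males as well, but their differences between the sexes, 0.79 and 0.48, did not pass (adjusted p = 0.109 and 0.0721). Probe sets with the suffix _f, _r, _s, _i or _g, among them those of Ndufa3, Ndufa5, Ndufb2 and Ndufb5, can bind related sequences, so their values may include other transcripts. Of the 76 tested members, 25 carry such a suffix.

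Ndufv1, the flavoprotein that binds NADH and receives its electrons, ran the other way. Its signals were 917.3, 1074, 747.9 and 669.2 in male wild-type, 1099 and 990.1 in female wild-type, 2209 and 2067 in male null, and 1084, 1183 and 1099 in female null brains. The male null brains held the highest values, with no overlap. The male difference was 1.35 (SE 0.17, adjusted p = 0.000105), or 2.55-fold higher, and the female difference 0.10.

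Ndufa9, an accessory subunit beside the ubiquinone channel, gave 980.6 and 875.4 in male null brains and 342.8 to 587.6 in the others. Its male difference was 1.13 (SE 0.16, adjusted p = 0.000289). Ndufs3, a core subunit of the ubiquinone module, was the third complex I member called higher in males, by 0.51 (972.4 and 1026 against 649.9 to 960.3 in the other 9). Ndufv2, the partner of Ndufv1 in the NADH-binding module, did not follow it: its 2 probe sets had male differences of -0.08 and -0.07, and genotype differences of opposite sign, 0.09 and -0.02. Ndufs4, Ndufb8, Ndufb9, Ndufb10, Ndufa6, Ndufa10 and Ndufa13 did not pass in any comparison, with male differences from -0.29 for Ndufa13 to 0.28 for Ndufa10. Among the assembly factors, Ndufaf1 was called higher in males by 0.61, and Ndufaf4 had a male difference of -0.16. A second, dim Ndufaf1 probe set that was not tested went the other way, with means of 18.1 in male null and 32.6 in male wild-type brains.

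**Figure D2:**
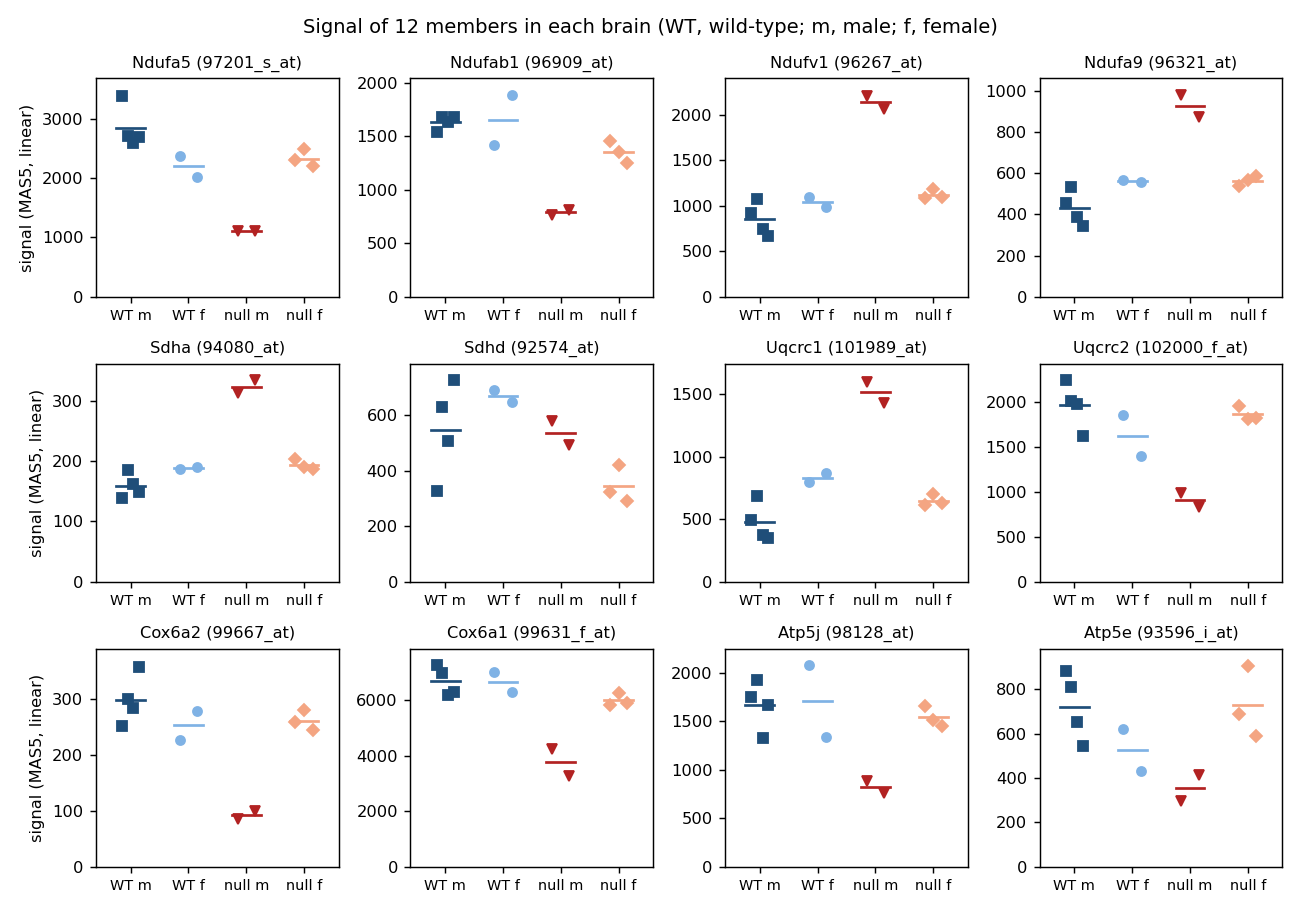
MAS5 signal on a linear y axis starting at 0 for 12 members, with 1 point per brain, grouped on the x axis by genotype and sex, and a bar at the mean of each group. The male null brains lie lowest for Ndufa5, at 1109 and 1107, and highest for Ndufv1, at 2209 and 2067, while Sdhd is lower in the female null brains, at 291.1 to 420, than in the female wild-type brains.

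Complex II, or succinate dehydrogenase, oxidises succinate to fumarate in the citric acid cycle. It differed from the other complexes in direction: all 4 of its probe sets had a male difference above 0, with a median of 0.34, and 1, Sdha, was called. Its mean deviation was 0.28 in each of the male null brains, -0.34 to 0.10 in male wild-type, 0.12 and 0.10 in female wild-type, and -0.09 to -0.01 in female null brains. With each array centred on its median, 3 of 4 male differences were above 0 and the median was 0.06, where the median of all probe sets moved to -0.23. Quantile normalization gave 3 of 4 called higher in males and a median of 0.51.

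Sdha, the flavoprotein that holds the catalytic site, had signals of 138.8, 184.7, 162.5 and 149.2 in male wild-type, 186.2 and 189.3 in female wild-type, 312.1 and 334.5 in male null, and 203.6, 189.7 and 186.7 in female null brains. The male null values were well above the rest, which lay close together. The male difference was 1.03 (SE 0.15, adjusted p = 0.000316), the female difference 0.04 and the difference between the sexes -0.99 (adjusted p = 0.0106). Sdhb, the iron-sulphur subunit, gave male and female differences of 0.38 and -0.0023, and Sdhc, a membrane anchor, gave 0.30 and 0.29. Neither passed.

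Sdhd, the other membrane anchor, had the largest female difference, in size, of the 76 tested members. Its signals were 689.9 and 646.8 in female wild-type and 324.6, 420 and 291.1 in female null brains, with no overlap. In males they were 325.6, 629.7, 507.9 and 726.3 in wild-type and 578.1 and 493.3 in null brains, which overlapped. The female difference was -0.97 (SE 0.27, unadjusted p = 0.00359, adjusted p = 0.995), the male difference 0.03, and the difference between the sexes -0.996 (adjusted p = 0.09). Wild-type 1, a male, was as low as the female null brains. Sdhd lies on chromosome 9, as Chrnb4 does, and is the 55th protein-coding gene from it in the RefSeq order of GRCm38.p6. The other members on that chromosome are Cox5a, 30 genes away and too dim to test, Atp5l, Cox7a2 and Uqcrc1. Female differences of the tested ones were 0.12 for the brighter Atp5l probe set, 0.09 for Cox7a2 and -0.36 for Uqcrc1.

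Complex III, the cytochrome bc1 complex, had a median male difference of -0.69 over its 10 probe sets with cytochrome c, with 7 called lower and 1 higher. In females the median was 0.02. The male null arrays had mean deviations of -0.20 and -0.32, and the other 9 lay between -0.06 and 0.23.

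The probe sets of the 2 core proteins of complex III, Uqcrc1 and Uqcrc2, which form a heterodimer on the matrix side, went in opposite directions. Each gene was read by 1 probe set, and that of Uqcrc2 carries the suffix _f, so its values may include other transcripts. Uqcrc2 signals were 2238, 2006, 1976 and 1624 in male wild-type, 1853 and 1392 in female wild-type, 985.6 and 834.1 in male null, and 1955, 1807 and 1819 in female null brains. Uqcrc1 signals were 492.2, 687.3, 373 and 349.4 in male wild-type, 798.4 and 867.4 in female wild-type, 1602 and 1435 in male null, and 617.7, 701.2 and 626.9 in female null brains. The male null brains were thus lowest of all for Uqcrc2 and highest of all for Uqcrc1. The male difference was -1.10 (SE 0.15, adjusted p = 0.000212) for Uqcrc2 and 1.73 (SE 0.22, adjusted p = 0.000121), or 3.31-fold higher, for Uqcrc1. For Uqcrc1 all 3 female null values lay below both female wild-type values, a female difference of -0.36 (unadjusted p = 0.142), and the difference between the sexes was -2.09 (adjusted p = 0.00188), the largest of all members in size.

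The small subunits of complex III were lower in male null brains. Uqcrq had 2087 and 1897 there and 2825 to 3831 in the other 9, a male difference of -0.84. Uqcr10, Uqcr11, Uqcrb and Uqcrh, which encodes the hinge protein that contacts cytochrome c1, had male differences of -0.81, -0.70, -0.68 and -0.48, all called. Of these, Uqcr10, Uqcrh and Uqcrq also passed for the difference between the sexes, while Uqcr11 and Uqcrb did not (adjusted p = 0.0606 and 0.164). Cyc1, or cytochrome c1, has 2 tested probe sets that disagreed. The _at probe set had 2836 and 2306 in male null and 3790 to 4726 in the other brains, a male difference of -0.71 (adjusted p = 0.000866). The _r_at probe set had a male difference of 0.59 (adjusted p = 0.0848). Cycs, the soluble electron carrier, gave 212.3 and 197.7 in male null and 220.3 to 349.6 in the others. Its male difference was -0.44 (adjusted p = 0.0831).

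**Figure D3:**
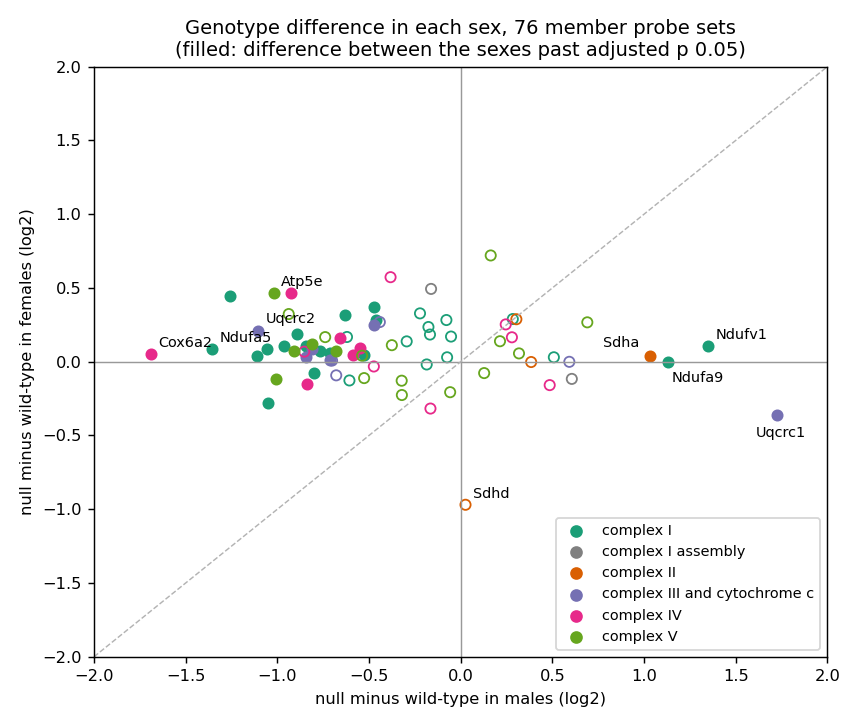
Fitted genotype difference (null minus wild-type, log2) of each of the 76 tested members in males, on the x axis, against that in females, on the y axis, coloured by complex and filled where the difference between the sexes passed adjusted p 0.05. Most filled points lie left of 0 in males, near 0 in females. Ndufa9, Ndufv1, Sdha and Uqcrc1 lie to the right and Sdhd lies low on the female axis.

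Complex IV, cytochrome c oxidase, had a median male difference of -0.55 over 13 probe sets, with 8 called lower and 1, Cox7a2l, called higher. The array means were -0.27 and -0.33 in male null and 0.05 to 0.35 in male wild-type brains. The 5 female brains ranged from -0.10 to 0.06, above both male null brains and overlapping the lowest male wild-type brain. The subunits Cox5b, Cox6c, Cox7a2 and Cox7b were lower in male null brains and passed for the difference between the sexes. Cox7b had 940.5 and 828.1 in male null and 1028 to 2088 in the other brains, with a male difference of -0.93 and a female difference of 0.47 (unadjusted p = 0.047).

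Several complex IV subunits come in tissue isoforms from separate genes. Cox6a2, known as the isoform of heart and skeletal muscle, had the most negative male difference of all members. Its signals were 252, 301.5, 284.1 and 358.6 in male wild-type, 227.4 and 279.7 in female wild-type, 85.3 and 99.5 in male null, and 260.1, 280.5 and 244.4 in female null brains. The male null values were less than those of every other brain. The male difference was -1.69 (SE 0.17, adjusted p = 2.54e-05), or 3.22-fold lower, and the female difference 0.05. Its widely expressed counterpart Cox6a1 moved the same way by less: 4247 and 3268 in male null against 5834 to 7269 in the other brains, a male difference of -0.84 (SE 0.13, adjusted p = 0.000383). The summed signal of 13 striated muscle markers was 431.8 and 489.3 in male null and 410.7 to 519.3 in the other brains, and 0 of its 6 tested genes were called in males.

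Other isoform pairs were harder to follow because 1 or both members were dim. Cox7a1, the muscle isoform, was not tested, and Cox7a2, its counterpart, was lower in male null brains by 0.55 on the log2 scale. Cox7a2l, which encodes a related protein, was higher by 0.49 (743.6 and 702 against 443.2 to 648). Cox4i1 has 2 tested probe sets with male differences of -0.47, which passed, and -0.16, which did not. Cox6b2, described as a testis isoform, had 1 tested probe set, at 47.6 and 43.6 in male null and 52.3 to 115.7 in the others (male difference -0.85, adjusted p = 0.0485), and Cox6b1 had 0.25 (adjusted p = 0.547). For Cox8, the main isoform Cox8a was too dim to test. The muscle isoform Cox8b and the testis isoform Cox8c gave -0.38 and 0.28 in males, neither called. Near the background of the array such isoform signals may not be specific, and no detection calls were used.

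Complex V, the ATP synthase, had a median male difference of -0.45 over 18 probe sets, with 10 called lower and 0 higher. The array means were -0.21 and -0.38 in male null and -0.04 to 0.22 in the other 9 brains. Among the subunits of the catalytic head and its central stalk, Atp5a1, the alpha subunit, was lower by a modest -0.32 (2624 and 2519 against 3036 to 3552, adjusted p = 0.0311). Atp5c1, the gamma subunit, had 1 probe set that was lower (-0.68, adjusted p = 0.00222) and 1 that did not pass (-0.06).

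Atp5e, the epsilon subunit of the central stalk, had signals of 882.6, 811.4, 653.5 and 543.1 in male wild-type, 620 and 434.1 in female wild-type, 297.4 and 412.1 in male null, and 687.3, 906.7 and 590.3 in female null brains. The male null values were lowest, but wild-type 5 at 434.1 was close to them. Its male difference was -1.02 (SE 0.23, adjusted p = 0.00526) and the difference between the sexes 1.49 (adjusted p = 0.0121). The 4 tested probe sets of Atp5d, the delta subunit of that stalk, had male differences of -0.74, -0.32, -0.53 and 0.32, of which the first and the third passed.

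Atp5j, coupling factor 6 of the peripheral stalk, had 889.6 and 763.5 in male null and 1330 to 2078 in the other brains, with no overlap (male difference -1.01, adjusted p = 0.00122). The other tested genes of that stalk, Atp5o and Atp5pb, did not pass, with male differences of 0.13 and 0.69. In the membrane part, Atp5l, subunit g, had 2135 and 1915 in male null and 2452 to 4246 in the others for its brighter probe set. The male difference was -0.81, and 0.16 for the dimmer one. Atp5md, Atp5k and Atp5mpl, further small membrane subunits, were lower by 0.91, 0.94 and 0.54 on the log2 scale in males. The subunit c genes of the proton-carrying ring, Atp5g1 and Atp5g2, gave male differences of 0.21 and -0.38 and did not pass.

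Over both sexes together the median difference was closer to 0 than in males. Of the 76 tested, 52 had a genotype difference below 0 (68.4%, against 46.0% of all probe sets), with a median of -0.25 against 0.03. An unadjusted p under 0.05 was reached by 31 members, 24 lower and 7 higher, where 9.69% and 13.4% of all probe sets reached it (23.1% in all). The count of members with every null value below every wild-type value was 0, as was the count above, against 0.496% and 0.590% of all probe sets. The medians by complex were -0.18 for I, 0.25 for II, -0.37 for III with cytochrome c, -0.26 for IV and -0.27 for V. Without the 2 male null brains, the median of all members was 0.08. Without wild-type 5, 20 members passed the genotype test (11.8% of all probe sets did), and without wild-type 3, 4 did (2.62% of all).

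**Figure D4:**
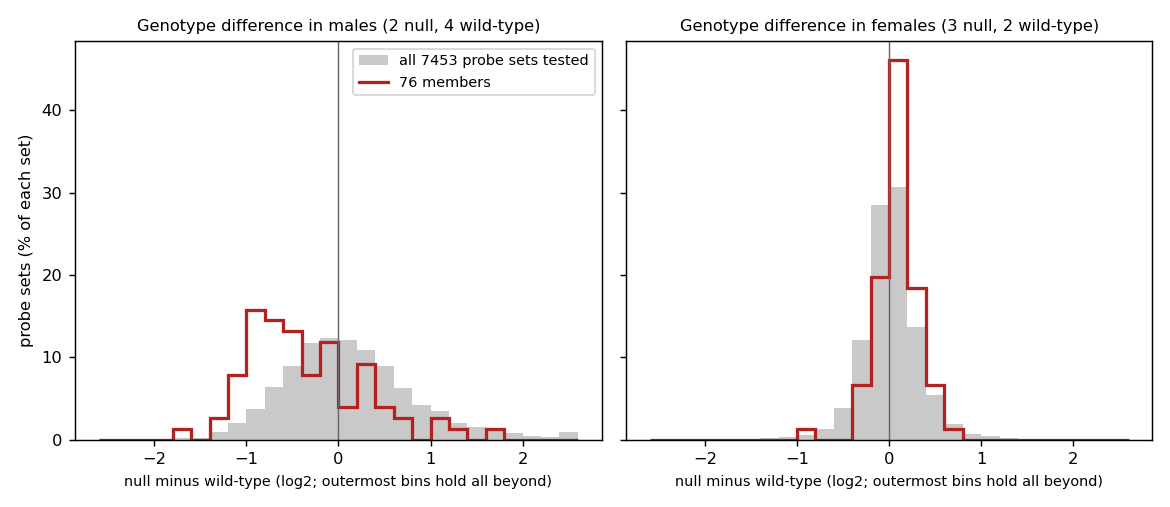
Share of probe sets, in percent of each set on the y axis, by fitted genotype difference in log2 on the x axis, for males on the left and females on the right. In males the 76 members (red line) lie left of all 7453 probe sets (grey), with medians of -0.47 and 0.05, and in females both lie around 0, with medians of 0.08 and 0.02.

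Wild-type 1 is the wild-type brain that shares sex, age and number letters with both male null brains. Against it alone, both male null brains were lower at 55 members and higher at 14, where 41.5% and 43.7% of all probe sets were lower and higher. The median member difference was -0.58, against 0.00 over all. Against all 9 other brains, both male null values were lower at 40 members and higher at 7, where 16.5% and 20.7% of all probe sets were. Wild-type 1 had the highest of the 6 wild-type values at 28 members (36.8%, against 23.7% of all probe sets).

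For the difference between the sexes, the 35 called members were 31 with a positive value, meaning a female difference above the male one, and 4 with a negative value: Ndufa9, Ndufv1, Sdha and Uqcrc1. Over all probe sets 7.25% were called positive and 8.68% negative. The 35 comprised 17 of 29 for complex I, 1 of 4 for complex II, 6 of 10 for complex III with cytochrome c, 6 of 13 for complex IV and 5 of 18 for complex V. Leaving out null 2 gave 14 members past the threshold, against 6.19% of all probe sets, and leaving out wild-type 5 gave 17, against 6.70%.

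Females and males compared across genotypes gave 0 called members and 0 of 7453 probe sets (0%). Unadjusted p was under 0.05 for 12 members, 9 higher and 3 lower in females, and for 12.4% of all probe sets (4.88% higher and 7.54% lower). The members nearest to the threshold were Ndufs1, the largest iron-sulphur subunit of complex I (0.37, adjusted p = 0.303), the brighter Atp5c1 probe set (0.41, adjusted p = 0.331) and the dimmer probe set of Cox4i1 (-0.78, adjusted p = 0.343). The median sex difference was 0.17 with all arrays and -0.12 without the 2 male null brains.

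Spread among the 6 wild-type brains alone was measured as the coefficient of variation. The median coefficient of variation was 16.3% over the 76 members and 19.5% over all 7453. It was 15.5% for complex I, 14.4% for complex II, 17.1% for complex III with cytochrome c, 15.8% for complex IV and 19% for complex V. Wild-type 5 had the lowest wild-type value at 31 of 76 members (40.8%, against 19.7% of all probe sets). Wild-type 3, the other female wild-type brain, had it at 8 (10.5%, against 14%). For Ndufb6 wild-type 3 and wild-type 5 gave 2231 and 1265, and for Ndufv3 399.2 and 272.4.

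The rest of the mitochondrial pathway did not follow a single direction in the male null brains, and each gene was read through its brightest probe set. The counts below stand against 17.8% of all probe sets called higher in males and 14.8% called lower. In the genotype difference 0 members of any list below were called. Of 12 tested assembly and inhibitor proteins, 7 were lower in males and 0 higher, with a median of -0.65: Atpif1, which inhibits ATP hydrolysis by complex V, Cox17, a copper chaperone of complex IV, Cox18, Hccs, which attaches haem to cytochromes c, Lrpprc, Sdhaf1 and Tmem126a. Their male differences ran from -1.14 for Sdhaf1 to -0.56 for Cox18. Of 18 genes of the citric acid cycle and pyruvate dehydrogenase, 7 were higher and 2 lower. Higher were Pcx, Dlst, Idh2, Pdha1, Ogdh, Idh3g and Cs, from 1.53 for Pcx to 0.55 for Cs, and lower were Sucla2 (-0.87) and Idh3a (-0.85).

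Of 11 carriers and porins, Slc25a10 (1.32), Slc25a5 (1.31), an ADP/ATP carrier, and Ckmt1 (1.09), mitochondrial creatine kinase, were higher and Vdac2 (-0.86), a porin, was lower. Of 9 other electron donors, Coq3 (0.77) was higher and Gpd2 (-1.04) and Etfa (-0.62) were lower. Among 12 regulators of these genes, Sirt3 (0.65), Gabpb1 (0.59) and Esrra (0.57) were higher, and Yy1 (-0.74) and Hif1a (-0.49) were lower. Of 8 antioxidant enzymes, Gpx4 (0.69) was higher, and Sod2 (-0.88) and Prdx3 (-0.48) were lower. Of 57 mitochondrial ribosomal proteins 9 were higher, a share near that of all probe sets, and 15 lower, and of 21 import proteins 1, Timm44 (1.14), was higher and 6 lower, from -1.34 for Hspe1 to -0.50 for Gfer.

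Cell type markers moved with the male null brains as well. The summed signal of 11 neuronal markers was 14148 and 14260 there and 10546 to 12904 in the other 9, and 8 of its 11 tested genes were called higher in males and 1 lower. The microglial sum of 10 markers was 2217 and 2590, against 1701 to 2217 in the others, with 4 of 8 tested genes higher and 2 lower. The erythroid sum of 3 markers was 2188 and 2206, against 2365 to 6091, with 0 of 2 called. The choroid plexus sum of 3 was 664 and 922, against 982 to 1762, with 2 of 3 lower. Sums for astrocytes, oligodendrocytes, endothelium and brown fat overlapped between the male null and the other brains. In males 1 astrocyte marker was higher and 2 lower of 8, 2 and 1 of 6 for oligodendrocytes, 0 and 2 of 8 for endothelium, and 0 of 1 was called for brown fat. The part of these shifts, of the Gapdh ratio and of the array medians in the respiratory chain differences was not tested.

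The 25 members that were not tested had signals of 0.5 to 70.9 over all arrays, with a median of 7.4. For 7 genes (Atp5j2, Cox5a, Cox7a1, Cox8a, Ndufa1, Ndufa12 and Ndufc2) no probe set was bright enough, so nothing can be said of them. The other untested probe sets belong to genes with a brighter one.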

How the data were processed

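Gene expression was measured in whole brain RNA of 11 mice on 1 array each. The deposited values are MAS5 intensities on a linear scale, per the submitters' processing notes, 1 per probe set and array, and the authors' software scaled each array to a common mean (trimmed mean 150.1 here). The MAS5 version, the scanner and detection calls are not given in the sources used here. Probe sets were named from a platform annotation that gives 1 gene for 10855, several for 396 and none for 1237.

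Here, 66 control probe sets were left out, intensities under the 10th percentile (3.1) were set to that value before taking log2. Probe sets with a mean log2 signal under the 40th percentile (4.69) were not tested, which left 7453. limma 3.58.1 in R 4.3.3 (eBayes with a variance trend, Benjamini-Hochberg adjustment over all 7453) was fitted to all 11 arrays. The genotype difference had sex as a covariate, the sex difference had genotype, and the interaction model gave the difference within each sex. The floor shrinks fold changes of the dimmest probe sets. Each mouse is 1 replicate, and the number of arrays limits the precision. The scripts were tested on simulated data, with noise taken from the fit of genotype and sex. They recovered 62% of 2-fold and 97% of 4-fold genotype differences. For the interaction they recovered 8% and 55%, so a probe set that did not pass may still differ.

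The members and lists were chosen with earlier results of these data known, so counts and medians over them carry no p-value. Members named with values were all those past the threshold in the genotype, sex or interaction test, the 3 lowest and 2 highest genotype differences of each complex, the 3 lowest p-values for sex and interaction, isoform families, Cycs, and genes whose probe sets had opposite signs. Members named beyond these, because they passed in males or to complete a complex, were chosen after their values were seen. Motifs were searched on both strands of the 250 bases before each RefSeq gene start, and bases after the start were not searched.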

Additional observations from a re-analysis of the deposited data

Results flagged for a closer look

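The interaction value, which is the null minus wild-type difference of females less that of males, passed its test at 35 members. In complex I it was 0.95 for Ndufa2, 1.70 and 1.14 for the 2 probe sets of Ndufa3, 1.44 for Ndufa5, 0.77 for Ndufa8, -1.13 for Ndufa9, 0.77 for Ndufab1, 0.73 and 0.84 for the 2 of Ndufb2, 1.08 for Ndufb3, 1.07 for Ndufb5, 0.95 for Ndufb6, 0.74 for Ndufb7, 0.57 for Ndufb11, 1.15 for Ndufc1, -1.25 for Ndufv1 and 0.85 for Ndufv3. In complex II it was -0.99 for Sdha. In complex III it was 0.72 for Cyc1, 0.89 for Uqcr10, -2.09 for Uqcrc1, 1.31 for Uqcrc2, 0.72 for Uqcrh and 0.87 for Uqcrq. In complex IV it was 0.63 for Cox5b, 0.69 for Cox6a1, 1.74 for Cox6a2, 0.82 for Cox6c, 0.64 for Cox7a2 and 1.39 for Cox7b. In complex V it was 0.75 for Atp5c1, 1.49 for Atp5e, 0.89 for Atp5j, 0.93 for Atp5l and 0.98 for Atp5md. All rest on the 2 male null arrays, which differ from the other 9 in Gapdh ratio and median signal.

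A single array far from the rest of its group, by the gap to its nearest neighbour over the group's range, was seen in 4 of 130 groups tested, where chance alone gives about 1 in 20. Wild-type 5 was low for Ndufb6 (0.707) and Ndufv3 (0.705). Wild-type 3 was low for Cox8b (0.727) and for the dimmest tested probe set of Atp5d (0.667).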

How the results depend on the processing

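The interaction was refitted in 22 settings, and 0 of the 35 interaction calls turned sign in them, with 34 of the 35 retested under the 60th percentile filter. The numbers still past the threshold ranged from 0 with the Gapdh ratio as a covariate to 35. The median male difference of the members stayed below 0 in all settings run, at -0.58 against wild-type 1 alone (an alternative added after seeing the data) and -0.76 with median centring.

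With the Gapdh ratio as a covariate, 0 probe sets passed for interaction (1187 without it) or genotype (2), 0 members were called for interaction or in males, and the member medians were 0.15 for genotype and -0.016 for sex. The genotype difference of 48 of 76 members turned sign then, including 12 of the 24 named for the 3 lowest or 2 highest genotype differences of their complex: Atp5l (0.20), Atp5md (0.20), Cox6a2 (0.12), Ndufa5 (0.18), Ndufa9 (-0.11), Ndufc1 (0.16), Ndufv1 (-0.050), Sdha (-0.059), Uqcrb (0.030), Uqcrc1 (-0.65), Uqcrc2 (0.39) and Uqcrq (0.17). Without the 2 male null brains 0 probe sets passed for genotype, and the medians were 0.078 for genotype and -0.12 for sex. With these brains left out, 2 members had every null value above every wild-type value. No share over all probe sets was computed for that count, and fewer arrays separate more easily. The genotype difference of 45 of 76 members turned sign, including 12 of the same 24: Atp5l (0.12), Atp5md (0.071), Cox6a2 (0.051), Cox6b2 (0.068), the _r_at probe set of Cyc1 (-0.00079), Ndufa5 (0.084), Ndufa9 (-0.00048), Ndufc1 (0.040), Sdhb (-0.0023), Uqcrc1 (-0.36), Uqcrc2 (0.21) and Uqcrq (0.032). With age added, 0 passed for genotype and 13 of 76 turned sign, including 3 of those 24: Cox6b1 (-0.054), Cox8c (-0.063) and the _r_at probe set of Cyc1 (-0.13). The share of all probe sets that turned sign in these settings was not computed, so these counts cannot be read as particular to the members. The cause of these changes was not tested.

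With the 8 B4 animals alone, 644 probe sets passed for interaction, 26 for genotype and 10 for sex. The member medians were then -0.018 for females and 0.25 for sex. Among these 8 animals 1 member had every null value above and 8 below every wild-type value. No share over all probe sets was computed for these 2 counts, and fewer arrays separate more easily, so they cannot be read as a property of the members. Median centring gave 1 probe set for genotype and member medians of -0.43 for genotype, 0.83 for interaction and 0.35 for sex, where it moved the medians of all probe sets to -0.15, 0.20 and 0.17. Quantile normalization gave 1 for genotype and 3 members above without overlap, a count for which no share over all probe sets was computed. With no filter, 0 passed for genotype and 3 for sex, and the genotype median was -0.15. The 60th percentile filter and the fit with no covariate gave 1 for genotype each, and the floor at the 20th percentile gave 2 for sex. Without the variance trend 20 members passed for interaction, against 12.7% of all probe sets.

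Leaving out 1 array at a time gave 461 to 1406 probe sets for interaction, 1 to 877 for genotype (877 without wild-type 5, 195 without wild-type 3 and 9 without null 5) and 0 to 30 for sex (30 without wild-type 5). Member medians ranged from -0.31 to -0.13 for genotype, -0.57 to -0.44 in males, -0.018 to 0.17 in females, 0.52 to 0.66 for interaction and 0.072 to 0.29 for sex. Members called numbered 0 to 20 for genotype, 29 to 48 in males and 14 to 38 for interaction. The shares of all probe sets called ranged from 0.0134% to 11.8%, 16.3% to 33.4% and 6.19% to 18.9%. The lowest counts in males and for interaction came without null 2, which leaves 1 male null brain. Members without overlap numbered 0 to 2 above and 0 to 1 below, counts for which no share over all probe sets was computed. No paired analysis was possible because the labels give the samples no shared replicate numbers. Signals near the array background limit the isoform and dim probe sets.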
